A study of Mus musculus with 16 samples.

Results

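The leukocyte integrins and the pan-leukocyte surface genes are 10 genes that white blood cells, and in the brain the microglia, are known to express: the integrin chains Itgax, Itgam, Itgal and Itgb2, the phosphatase Ptprc, and Cd52, Cd53, Cd48, Ly86 and Laptm5. They were taken by gene symbol from the annotation of the array, which gave 17 probe sets for the 10 genes, out of 45037 probe sets and 18193 named genes on the array. Of these, 12 probe sets of 9 genes reached the level needed for testing. The remaining 5, among them both probe sets of Itgal, are described by their values.

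Expression was measured in mouse hippocampus on 16 Affymetrix Mouse Genome 430 2.0 arrays, each with RNA pooled from 3 to 4 mice of the same age, sex and genotype. VP16-CREB is the transcription factor CREB joined to a viral activation domain, so that it drives its target genes without the usual upstream signal, and A-CREB is a dominant negative partner that keeps CREB from DNA. Both are expressed in bitransgenic mice under a tetO promoter, which doxycycline (dox) shuts off. The labels do not name the promoter of the driver transgene. The 6 groups, all of strain C57BL/6J per the labels, were as follows. Mice of genotype tetO-VP16-CREB were raised on dox and killed at 6 weeks of age, 3 weeks after dox was removed (3 pools), beside WT littermates with the same dox history (3 pools). A second set of tetO-VP16-CREB mice was killed at 3 weeks of age, 1 week after dox was removed (2 pools), again beside WT littermates (2 pools). Mice of genotype TetO-A-CREB-95 C57BL6 F1/J were raised without dox and killed at 6 weeks of age (3 pools), beside WT littermates (3 pools). Age and time off dox therefore cannot be told apart between the VP16-CREB sets, and the A-CREB set had no dox history.

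Values are MAS5 intensities on a linear scale, which the authors had scaled to a common trimmed mean of 500 on each array. Array medians lay between 118.9 and 129.3 in the 3-week VP16-CREB set (6 arrays) and between 74.99 and 93.23 in the remaining sets (10 arrays), and the 3'/5' ratio of actin, a sign of RNA integrity, was 1.36 to 1.61 and 1.37 to 2.48 in those sets. For the labelled tissue, 14 hippocampal neuron markers were looked up, and all 14 passed the threshold for testing given below. As 60% of all probe sets passed it too, this alone cannot show that the tissue is hippocampus. A probe set was tested where its intensity passed 99.1, the median of all values, on at least 2 arrays, which left 27044. Differences are between means of log2(intensity + 10), transgenic minus littermates, with the standard error (SE) of a linear model over the 16 arrays (limma), and a probe set is said to have risen or fallen where its p-value, adjusted over the 27044 by Benjamini-Hochberg, was under 0.05. For arrays their number limits the precision. As every replicate is a pool, the p-values measure the spread between pools. In RNA of whole tissue, a change in the number of cells of a type and a change of the RNA per cell cannot be told apart.

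As background, integrins are pairs of an alpha and a beta chain that hold cells to their neighbours and to the matrix. Itgb2 (CD18) is the beta chain shared by the integrins of white blood cells, and Itgal (CD11a), Itgam (CD11b) and Itgax (CD11c) are its alpha chains. The resulting pairs bind ICAM proteins on other cells and, in the case of Itgam and Itgax, fragments of complement on material to be engulfed. Ptprc (CD45) is the membrane phosphatase that switches Src-family kinases in blood cells. Microglia, the resident macrophages of brain, carry Itgam and Itgb2 and a low level of CD45, and a higher level of Itgax is known from microglia in ageing and disease.

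Promoter windows (GRCm38.p6) were used for 7 of the 10 genes, 8 windows in all, each of 300 bases from 250 before the start to 50 after it. This start need not be the first base of the gene as given here. Itgam and Itgax are neighbours on chromosome 7 (chr7:128062640-128118491 and chr7:128129526-128150657), and their windows are shown because the 2 genes differed most among the 3 tested integrin chains. The window of Cd53 (gene at chr3:106758861-106790149, minus strand) is shown because it holds the only half-site of CREB among the 8. Capitals mark TGAGTCA, an AP-1 motif, in Itgax, GAGGAA or TTCCTC, the core bound by the myeloid factor PU.1, in Itgam and Cd53, and CGTCA, the half-site bound by CREB, in Cd53.
Itgax, chr7:128129300-128129599, plus strand: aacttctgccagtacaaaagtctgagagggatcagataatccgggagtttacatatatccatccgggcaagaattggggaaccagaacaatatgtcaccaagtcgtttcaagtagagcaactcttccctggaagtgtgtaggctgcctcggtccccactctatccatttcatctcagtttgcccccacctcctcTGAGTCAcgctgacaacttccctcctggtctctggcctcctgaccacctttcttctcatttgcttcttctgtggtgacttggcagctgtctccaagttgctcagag
Itgam, chr7:128062390-128062689, plus strand: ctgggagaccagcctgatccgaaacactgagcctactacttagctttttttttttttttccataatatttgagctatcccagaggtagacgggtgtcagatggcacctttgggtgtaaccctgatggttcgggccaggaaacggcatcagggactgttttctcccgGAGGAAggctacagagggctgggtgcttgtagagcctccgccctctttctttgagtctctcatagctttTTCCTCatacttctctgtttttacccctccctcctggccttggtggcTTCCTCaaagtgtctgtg
Cd53, chr3:106790100-106790399, minus strand: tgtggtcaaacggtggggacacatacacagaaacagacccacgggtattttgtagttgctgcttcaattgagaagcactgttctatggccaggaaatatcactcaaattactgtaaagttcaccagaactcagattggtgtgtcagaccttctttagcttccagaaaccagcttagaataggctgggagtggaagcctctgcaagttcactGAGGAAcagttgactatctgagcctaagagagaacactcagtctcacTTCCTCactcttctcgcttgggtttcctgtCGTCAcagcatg

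Motifs were searched on both strands in these windows and in 32851 windows of the same length over the genome. The full CRE, TGACGTCA, was in 0 of the 8 windows and in 1.79% of all. Its half-site, TGACG or CGTCA, which the full CRE also contains, was in 1 of the 8, that of Cd53 at position 39 after the start, and in 20.8% of all. The PU.1 core was in 4 of the 8 (Itgam, Ptprc, Cd53 and Laptm5) and in 28.3% of all. Itgam held it 3 times, at positions -84, -15 and 33 from the start, and Cd53 at -39 and 9. The AP-1 motif, TGAGTCA or TGACTCA, was in 1 of the 8, that of Itgax at position -56, and in 5.2% of all. A match says only that these letters stand in the window.

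After VP16-CREB had been on for 3 weeks, 11 of the 12 tested probe sets, at least 1 for each of the 9 tested genes, had risen and 0 had fallen. Of all tested probe sets 3.28% had risen and 0.651% had fallen. The differences were between -0.50 and 4.28 log2 with a median of 2.37, where the median over all tested probe sets was -0.014. On 11 of the 12, every VP16-CREB pool lay above every littermate pool, which held for 14.9% of all tested probe sets. Itgax and Cd48 passed the intensity threshold on transgenic arrays only (4 and 6 of the 8), on 0 of the 8 littermate arrays, so these 2 had to differ to be tested, and the counts are given as a description.

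**Figure D1:**
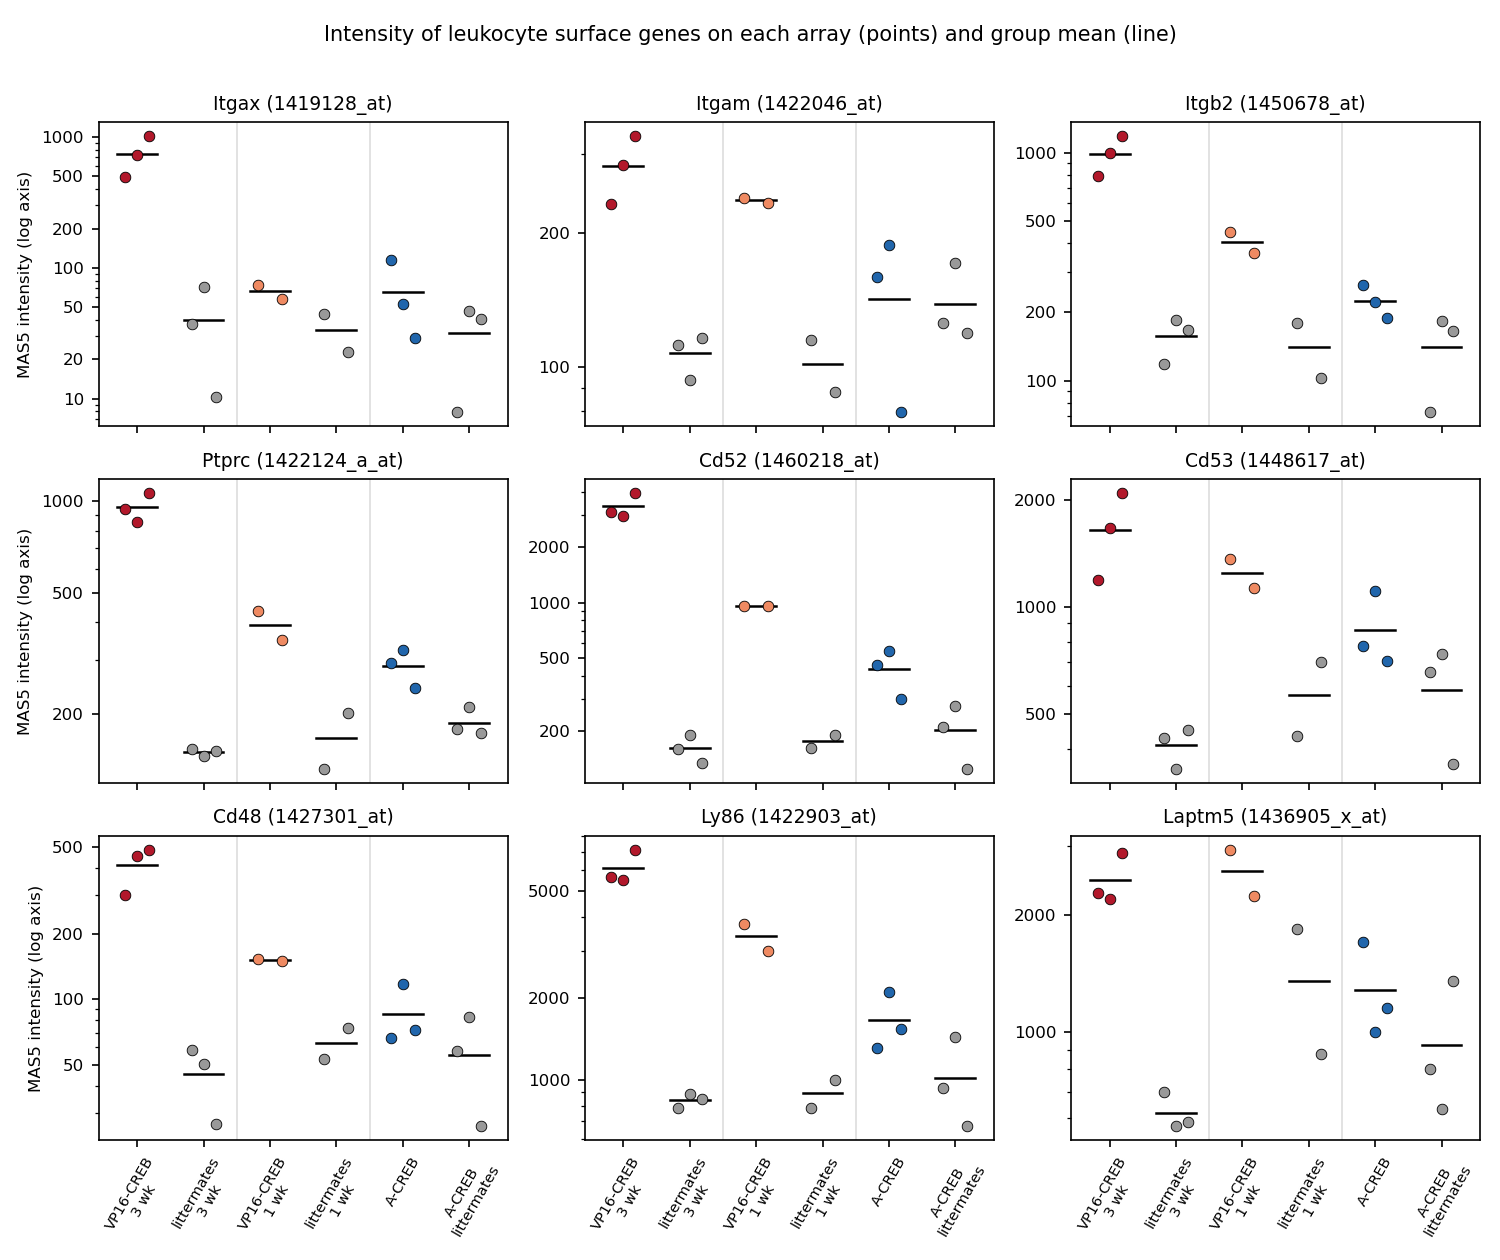
Each panel shows 1 gene at its tested probe set of highest mean, with the MAS5 intensity on a log axis for every array (points, 3 or 2 pools a group) and the group mean (line), VP16-CREB or A-CREB left of its littermates. The 3 VP16-CREB pools of 3 weeks lie above their 3 littermate pools in all 9 panels, from 495 to 1017 against 10.3 to 71.4 for Itgax, while the A-CREB pools overlap their littermates in 6 of the 9.

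Among the integrin alpha chains, Itgax stood out. Its intensity was 495, 727 and 1017 in the VP16-CREB pools of 3 weeks, against 37.5, 71.4 and 10.3 in littermates (746 ± 261 and 39.7 ± 30.6, SD, n = 3 each). The lowest transgenic pool was far above the highest littermate pool, and the littermate pools, all below the threshold of 99.1, varied widely among themselves. The log2 difference was 4.08 ± 0.55 (SE, adjusted p = 0.000568 by limma). Because the littermate intensities are that low, its size depends on the pseudocount (4.57 without one, 3.64 with 25) and gives no precise fold. The call did not rest on the filter (adjusted p = 0.00171 over all 45037 probe sets). With VP16-CREB on for 1 week the pools had 74.6 and 58.0, against 44.1 and 22.7 in littermates. They were apart by a small margin at low intensity, and the difference of 0.85 ± 0.68 was not called (adjusted p = 1). The A-CREB pools had 115, 52.9 and 29.3, against 7.85, 46.7 and 40.8 in littermates, which overlapped.

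Itgam, the alpha chain of Mac-1 and the usual marker of microglia, rose by less on the log2 scale than Itgax, a gap that was not itself tested. Intensities were 232, 284 and 329 in the VP16-CREB pools of 3 weeks, against 112, 93.9 and 117 in littermates (281 ± 48.6 and 108 ± 12.01, SD, n = 3 each). The groups were apart, with about a 2.46-fold change, a log2 difference of 1.301 ± 0.256 and an adjusted p of 0.00959. This was the one call at 3 weeks that leaving out a single pool ended: without the VP16-CREB pool of 329 the difference was 1.19 with an adjusted p of 0.0608. At 1 week the pools had 240 and 234, against 115 and 88.0 in littermates, so that they were about as high as at 3 weeks, but the difference of 1.15 ± 0.31 was not called (adjusted p = 0.279). With A-CREB they had 160, 187 and 79.3, against 126, 171 and 120 in littermates, a difference of -0.03 ± 0.26 (SE), with the groups overlapping. Its sign turned without the A-CREB pool of 79.3 (0.31), without the littermate pool of 171 (0.12) and with array weights (0.15).

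Itgal, the alpha chain of LFA-1 and the one most used by lymphocytes (gene at chr7:127296139-127335137), stayed below the threshold on all 16 arrays. Probe set 1435560_at had 92.7, 67.3 and 70.6 in the VP16-CREB pools of 3 weeks, against 10.9, 25.6 and 30.6 in littermates, which did not overlap. At 1425367_at the same pools had 37.4, 14.0 and 12.4, against 56.4, 54.0 and 17.2, which overlapped. No direction is drawn from values this low, and no test was made. With 1 week of VP16-CREB, 1435560_at had 44.8 and 44.0, against 20.9 and 35.2, and with A-CREB 41.4 to 45.3, against 14.5 to 68.6.

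Itgb2, the beta chain that all 3 of these alpha chains need (chr10:77530329-77565708), rose 5.99-fold with 3 weeks of VP16-CREB. The pools had 791, 999 and 1180, against 119, 185 and 168 in littermates (990 ± 195 and 157 ± 34.4, SD, n = 3 each). The groups were well apart (2.58 ± 0.31 log2, adjusted p = 0.000188). At 1 week the pools had 451 and 364, against 180 and 103 in littermates, between the levels of the other groups and not overlapping, with a difference of 1.51 ± 0.38 that was not called (adjusted p = 0.195). In A-CREB pools it had 264, 221 and 188, against 72.8, 183 and 166 in littermates. These were apart by the narrowest of margins and the difference of 0.72 ± 0.31 was not called (adjusted p = 1).

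Ptprc, the phosphatase CD45 (chr1:138062859-138175756), had nearly uniform littermate pools in the 3-week set. At 1422124_a_at the VP16-CREB pools of 3 weeks had 945, 857 and 1066, against 153, 145 and 150 in littermates (956 ± 105 and 149 ± 4.07, SD, n = 3 each). The rise was 6.04-fold (2.59 ± 0.18 log2, adjusted p = 2.31e-06). At 1 week it also rose: the pools had 434 and 349, against 131 and 202 in littermates, a difference of 1.21 ± 0.21 with an adjusted p of 0.0382. In A-CREB pools it had 293, 323 and 243, against 177, 211 and 173 in littermates. Those groups were apart too, yet the difference of 0.59 ± 0.18 was not called (adjusted p = 0.988). A second probe set, 1440165_at, stayed between 1.11 and 43.4 on the 16 arrays and is not interpreted.

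Cd52, a very short glycopeptide on a GPI anchor, abundant on lymphocytes and monocytes (chr4:134093538-134095073), had, with Itgax, one of the largest differences of the 12 probe sets, the order of the pair turning without a pseudocount or with array weights. The VP16-CREB pools of 3 weeks had 3082, 2948 and 3933, against 160, 192 and 135 in littermates (3321 ± 534 and 162 ± 28.3, SD, n = 3 each). The change was 19.4-fold (4.28 ± 0.27 log2, adjusted p = 1.47e-06). After 1 week the pools had 963 and 957, against 163 and 191 in littermates, a rise of 2.38 ± 0.33 log2 (adjusted p = 0.00807). With A-CREB the 3 pools had 458, 543 and 300, against 212, 274 and 124 in littermates. The lowest A-CREB pool was just above the highest littermate pool, and the difference of 1.08 ± 0.27 was not called (adjusted p = 0.68). Ordered by mean log2 level, the groups ran from VP16-CREB of 3 weeks through VP16-CREB of 1 week and A-CREB to the littermates of the A-CREB, the 1-week and the 3-week set. Each of the first 3 lay wholly above the group after it, and the 3 littermate groups overlapped each other.

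Cd48, a GPI-anchored receptor of the SLAM family that binds CD244 and CD2 (chr1:171681245-171705258), had 302, 456 and 487 in the VP16-CREB pools of 3 weeks, against 58.4, 50.5 and 26.6 in littermates (415 ± 98.8 and 45.2 ± 16.5, SD, n = 3 each). The groups lay far apart, with a rise of 2.97 ± 0.34 log2 (adjusted p = 0.000128, also called with no filter), although all littermate pools were below 99.1. At 1 week its pools had 153 and 150, against 53.0 and 73.3 in littermates, apart but not called (1.16 ± 0.41, adjusted p = 0.629). In the A-CREB set they had 66.1, 117 and 72.4, against 57.7, 82.8 and 26.03, and overlapped.

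Ly86 (MD-1), the secreted partner that CD180 needs to reach the cell surface (chr13:37345345-37419036), rose 7.12-fold at 3 weeks. The VP16-CREB pools had 5645, 5479 and 7110, against 786, 886 and 850 in littermates (6078 ± 898 and 841 ± 50.3, SD, n = 3 each). The littermate pools were close together, and the difference of 2.83 ± 0.25 log2 had an adjusted p of 1.39e-05. At 1 week it had 3785 and 3003, against 782 and 999.5 in littermates, also a rise (1.92 ± 0.31, adjusted p = 0.0195). With A-CREB the values were 1314, 2119 and 1540, against 933, 1437 and 672, and the groups overlapped (0.74 ± 0.25, adjusted p = 1).

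Cd53, a tetraspanin of white blood cells that organises receptors in the membrane, had 1189, 1670 and 2091 in the VP16-CREB pools of 3 weeks, against 429, 350 and 450.5 in littermates (1650 ± 451 and 410 ± 52.9, SD, n = 3 each). The transgenic pools varied more than those of the littermates but stayed clear of them (1.95 ± 0.29 log2, adjusted p = 0.00124). At 1 week the pools had 1362 and 1131, against 434 and 699, apart and not called (1.16 ± 0.36, adjusted p = 0.448). In A-CREB mice they had 778, 1109 and 704, against 658, 738 and 363, and overlapped. The second probe set, 1459744_at, stayed under the threshold, at 40.8 to 44.4 in the VP16-CREB pools of 3 weeks and 28.4 to 47.1 in littermates.

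Laptm5, a membrane protein of the lysosome in blood cells that sends antigen receptors to degradation (chr4:130912890-130936148), is the only one of the 10 with several tested probe sets, and they did not agree. At 1436905_x_at, the brightest, the VP16-CREB pools of 3 weeks had 2279, 2197 and 2883, against 702, 572 and 585 in littermates (2453 ± 375 and 620 ± 71.7, SD, n = 3 each). There the rise was 1.96 ± 0.31 log2 (adjusted p = 0.00187), and 1426025_s_at and 1417721_s_at rose by similar amounts (1.94 ± 0.19, adjusted p = 3.26e-05, and 2.17 ± 0.38, adjusted p = 0.00421). At 1459841_x_at the same pools had 72.5, 80.3 and 50.4, against 95.05, 96.4 and 104.6 in littermates. Here every VP16-CREB pool was below every littermate pool, which held for 12.8% of all tested probe sets, and the difference of -0.50 ± 0.52 was not called (adjusted p = 0.808). This probe set passed the threshold on 1 transgenic and 1 littermate array. Probe set 1447742_at, which was not tested, passed it on 1 littermate array alone. There the VP16-CREB pools of 3 weeks had 11.6 to 36.7, against 15.8 to 107.9 in littermates, which overlapped.

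**Figure D2:**
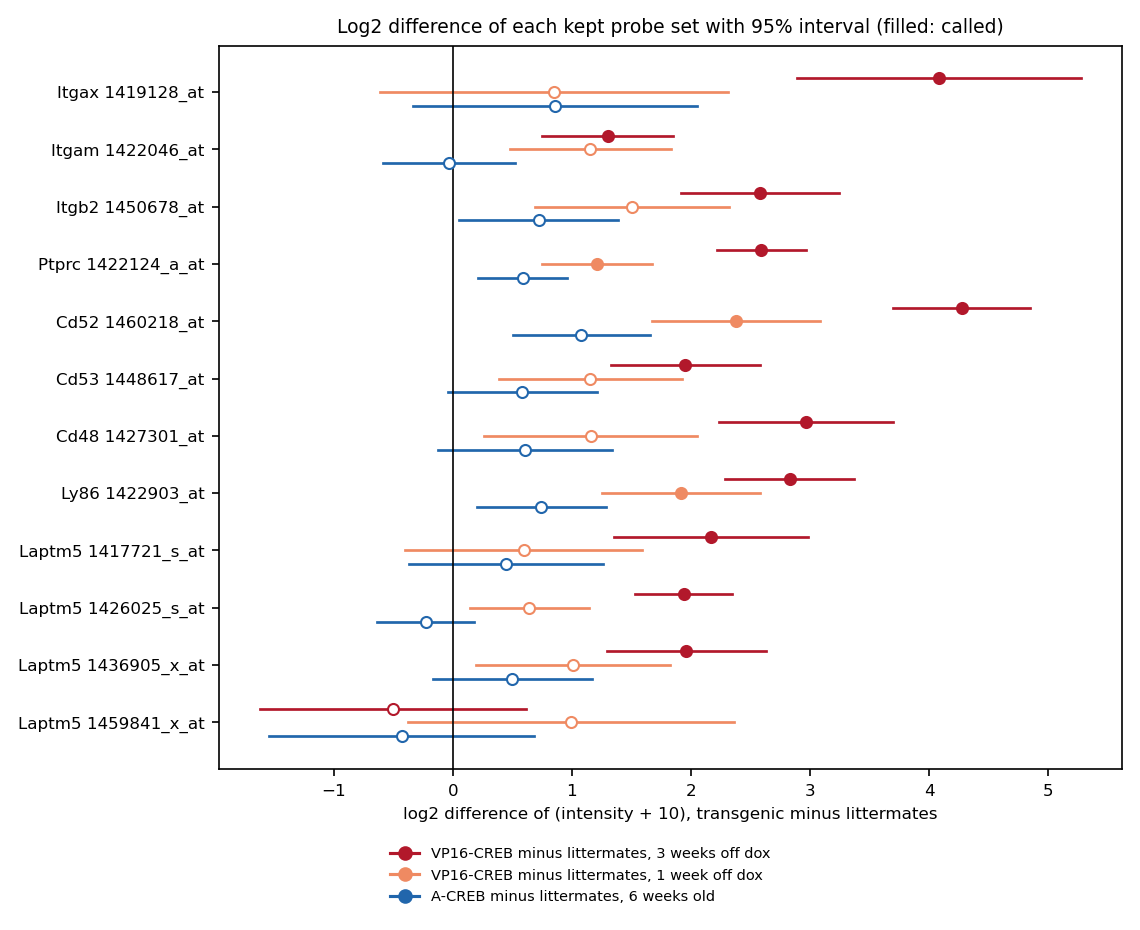
Log2 differences of the 12 tested probe sets, transgenic minus littermates, with 95% intervals (lines) for VP16-CREB of 3 weeks (red), VP16-CREB of 1 week (orange) and A-CREB (blue); filled points passed an adjusted p of 0.05. At 3 weeks 11 points are filled, at 1 week those of Ptprc, Cd52 and Ly86, and 0 with A-CREB.

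With 1 week of VP16-CREB, 3 of the 12 probe sets had risen (Ptprc, Cd52 and Ly86) and 0 had fallen, where 0.218% of all tested probe sets had risen and 0.0185% had fallen. All 12 differences were above 0, as were 53% of those of all tested probe sets, with medians of 1.16 and 0.018. On all 12, both transgenic pools were above both littermate pools, which held for 15.7% of all tested probe sets. The call of Ptprc was lost with no filter (adjusted p = 0.112), after median centring (0.0655), with only the arrays compared (0.587), with array weights (0.0808) and with a replicate block (0.143). That of Ly86 was lost with no filter (0.0575) and, like that of Cd52, with only the arrays compared (0.239 for Ly86 and 0.146 for Cd52). With 2 pools a group these calls were not robust to the loss of a pool. Without the first littermate pool the adjusted p-values of Ptprc, Cd52 and Ly86 were 0.227, 0.0692 and 0.147. Without the first VP16-CREB pool they were 0.329, 0.104 and 0.222, and without the second 0.0798, 0.0511 and 0.0624. Leaving out the second littermate pool ended the call of Ly86 only (0.0733).

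With A-CREB, 0 of the 12 probe sets were called, as were 0% of the 27044 tested. The difference was above 0 on 9 of the 12 and on 50.6% of all tested probe sets, with medians of 0.58 and 0.003. An unadjusted p under 0.05 in limma was found for 4, those of Itgb2, Ptprc, Cd52 and Ly86. The share of all tested probe sets with such a p was not counted, so this is a description. The A-CREB pools lay wholly above their littermates on 3 (Itgb2, Ptprc and Cd52), which held for 3.54% of all tested probe sets.

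The effects of VP16-CREB at both times were compared as a difference of 2 differences. At 3 weeks the difference from littermates was numerically larger than at 1 week on 11 of the 12 probe sets, and on 48.6% of all tested. The median over the 12 was 1.19 log2. Of the 12, 0 were called, where 0.0037% of all probe sets tested were. An unadjusted p under 0.05 in limma was found for 8, and the share of all tested probe sets with such a p was not counted. For Cd52 the effect was 1.90 ± 0.42 larger at 3 weeks (95% interval 0.99 to 2.81, adjusted p = 0.242), and for Ptprc 1.39 ± 0.28 larger (0.79 to 1.98, adjusted p = 0.197). After quantile normalization of the arrays those 2 were called (2.35, adjusted p = 0.0465, and 1.78, adjusted p = 0.0213). For Itgam the effect was 0.15 ± 0.41 larger at 3 weeks, with an interval of -0.73 to 1.02, and -0.03 without the first littermate pool of 1 week.

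Compared with the effect of A-CREB, that of VP16-CREB at 3 weeks was larger by the test on 5 of the 12 probe sets, where 0.828% of all tested probe sets were, and smaller on 0, where 0.0592% were. They were Cd52 (3.20 ± 0.38 log2, adjusted p = 0.00162), Cd48 (2.36 ± 0.48, 0.0359), Laptm5 at 1426025_s_at (2.17 ± 0.27, 0.00184), Ly86 (2.09 ± 0.36, 0.0127) and Ptprc (2.01 ± 0.25, 0.00184). The other tested probe sets of Laptm5 were not called, among them the brightest, 1436905_x_at (1.46 ± 0.44, adjusted p = 0.213). Itgax had a difference close to that of Cd52 but less precise (3.22 ± 0.78, interval 1.53 to 4.91), and it was not called (adjusted p = 0.0891). With a pseudocount of 25, quantile normalization or 1 probe set per gene it was (0.021, 0.0465 and 0.0435). The call of Cd48, whose littermates in both sets were below 99.1, was lost with no pseudocount (adjusted p = 0.0836), no filter (0.0865), only the arrays compared (0.0695) and a replicate block (0.0717). It was also lost on leaving out any one of 8 of the 12 pools, with adjusted p-values of 0.063 to 0.118: littermate pool 2 or 3 or VP16-CREB pool 2 or 3 of the 3-week set, littermate pool 1 or 2 or A-CREB pool 1 or 3 of the A-CREB set. Without littermate pool 1 of the A-CREB set, Itgax and Itgb2 were called as well (3.75, adjusted p = 0.0361, and 2.25, adjusted p = 0.0105). The 2 mouse sets also differed in dox history and in median array intensity, and the part of either was not tested.

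**Figure D3:**
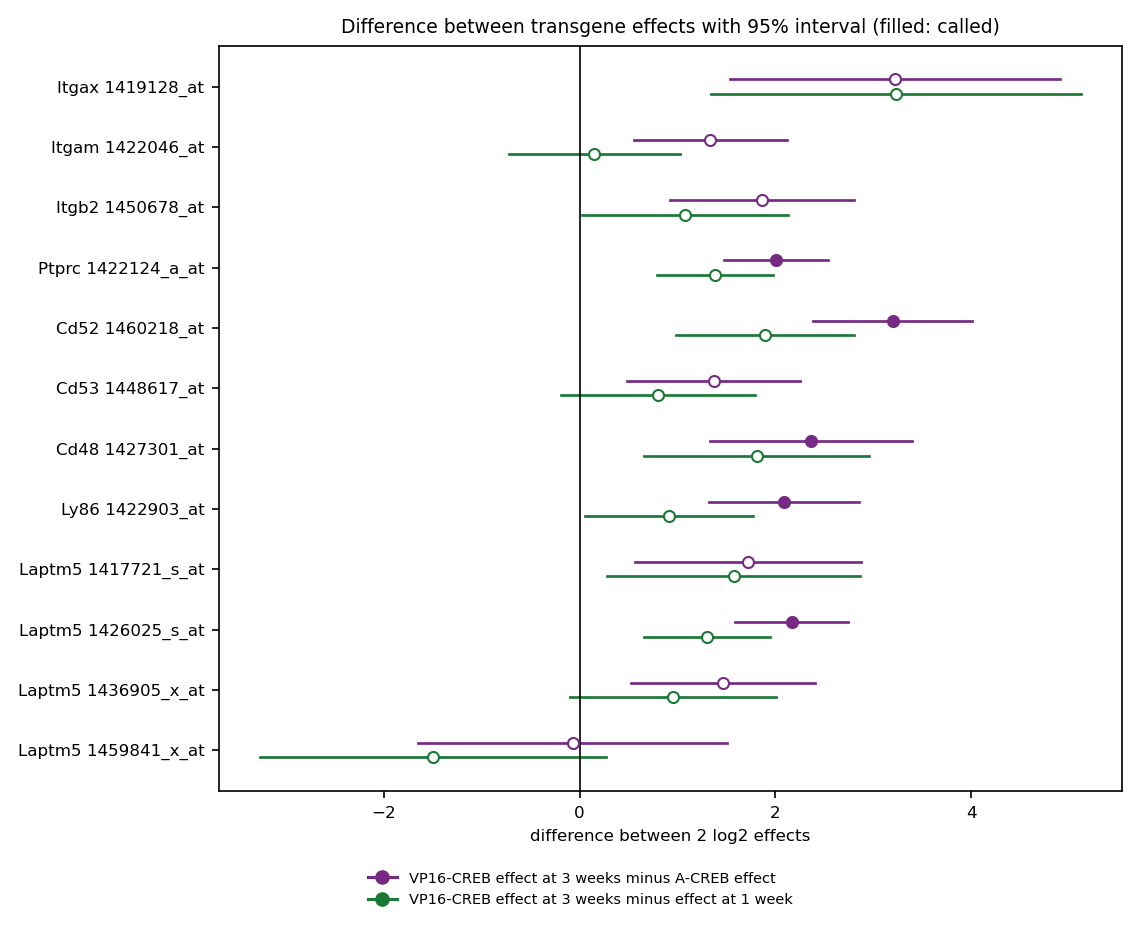
Differences between the effects (each transgenic minus littermates, log2) with 95% intervals for the 12 tested probe sets, VP16-CREB of 3 weeks minus A-CREB (purple) and VP16-CREB of 3 weeks minus 1 week (green); filled points passed an adjusted p of 0.05. The 5 filled purple points are those of Ptprc, Cd52, Cd48, Ly86 and Laptm5 1426025_s_at, and 0 green points are filled.

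Microglia markers moved with the members. Of the 11 genes measured from a list of resident microglia, 10 had risen in VP16-CREB mice of 3 weeks, P2ry12 being the exception (0.42 ± 0.42, adjusted p = 0.801), where 4.59% of the 12732 tested genes had risen. Their summed intensity was 19080 to 25290 in VP16-CREB pools, against 8578 to 8948 in littermates. At 1 week it was 16040 to 19810 against 9519 to 13820, with 0 of the 11 called beside 0.291% of all tested genes that rose, and with A-CREB 11250 to 14930 against 9927 to 12050, likewise 0. Their mean log2 value was 1.3 higher at 3 weeks, 0.72 at 1 week and 0.17 with A-CREB. None of the microglia markers was at 0 in any pool.

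Set against the mean of those 11 markers on the same array, the members moved unequally. At 3 weeks the difference of Cd52 exceeded that of the markers by 2.98 log2, of Itgax by 2.78, of Cd48 by 1.67 and of Ly86 by 1.53. Ptprc and Itgb2 exceeded it by 1.29 and 1.28, and Cd53 and the 3 risen probe sets of Laptm5 by 0.64 to 0.87. In all of these each VP16-CREB pool lay above each littermate pool after the markers were subtracted. For Itgam the excess was 0.002 and the pools overlapped, and for Laptm5 at 1459841_x_at it was -1.80, with every VP16-CREB pool below every littermate pool. At 1 week the largest excesses were those of Cd52 (1.66) and Ly86 (1.203), and Itgax had 0.14 with overlapping pools. With A-CREB the pools were apart for Cd52 (0.92) and Ptprc (0.42) and overlapped on the other 10 probe sets (-0.60 to 0.70). These are descriptions, as the same arrays gave both terms.

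**Figure D4:**
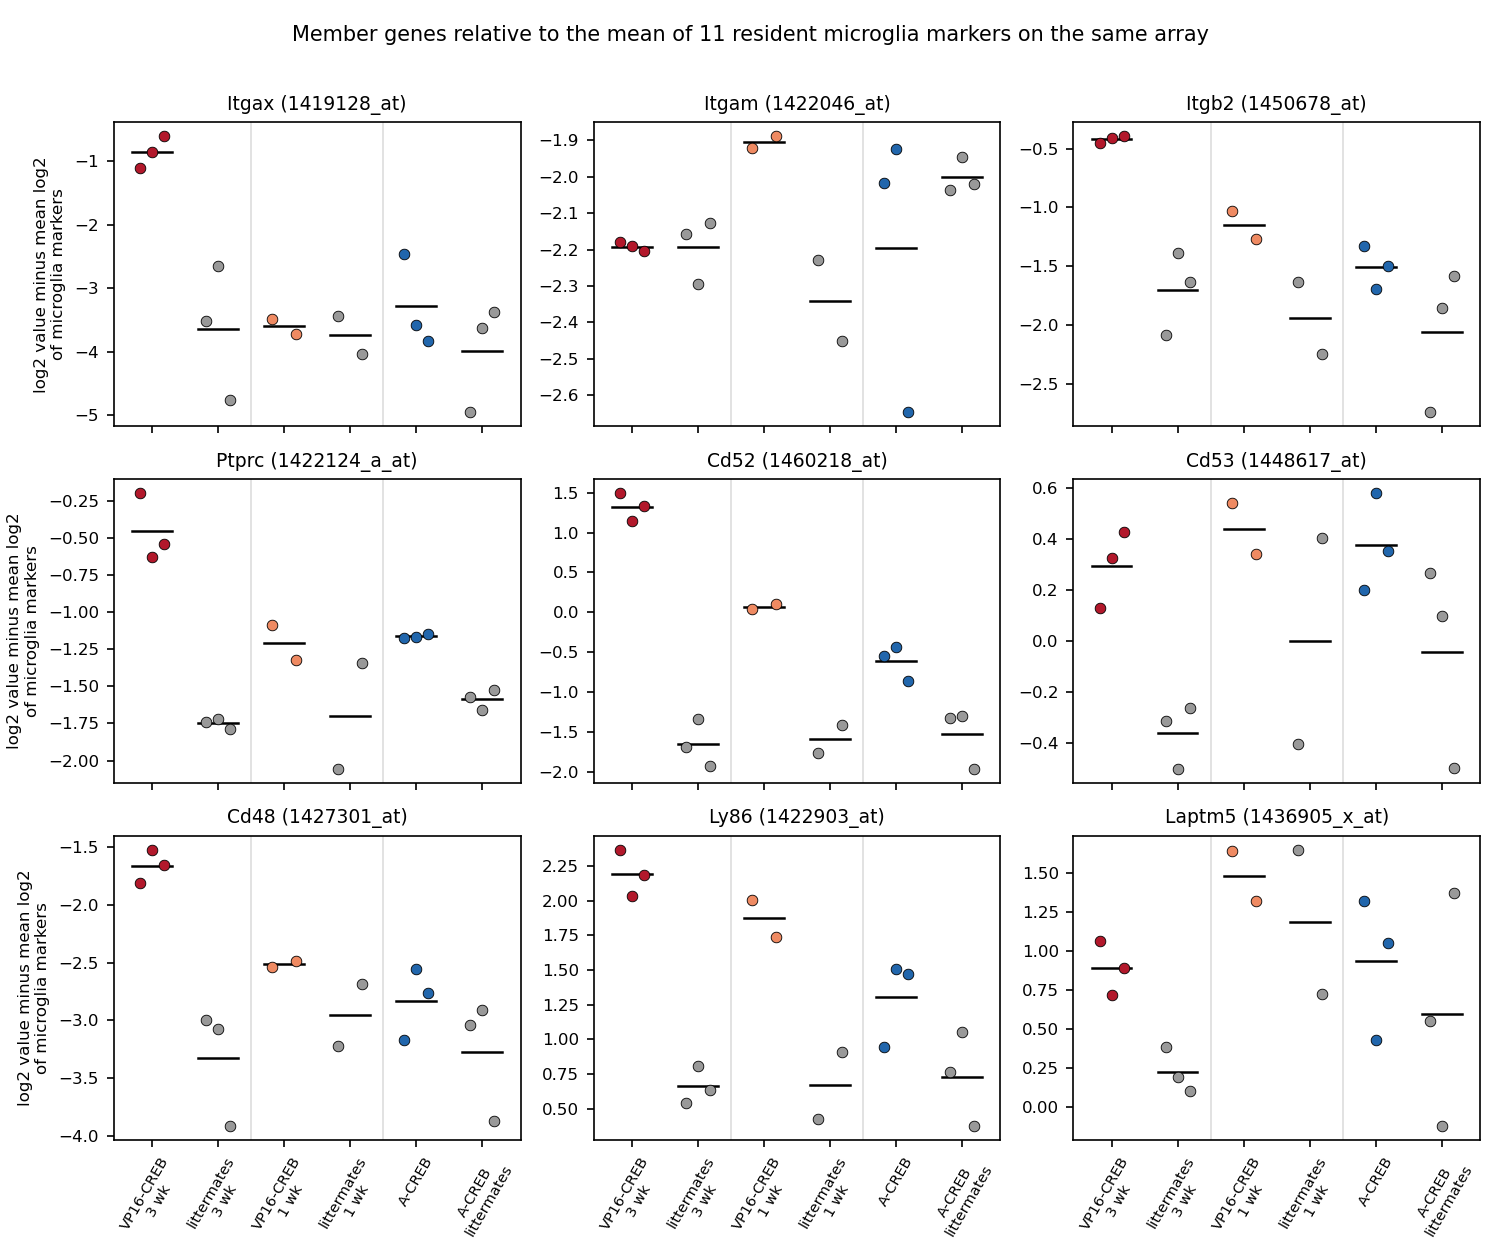
Log2 value of each gene minus the mean log2 value of 11 resident microglia markers on the same array, for every pool (points) and group (line), VP16-CREB or A-CREB left of its littermates; only differences within a panel can be read. For Itgam the pools of 3 weeks overlap and the means differ by 0.002, while for Cd52 and Itgax they lie 2.98 and 2.78 apart.

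Markers of blood-borne cells were mostly too dim to test. Over all tested genes, here and in the next paragraph, 4.59% rose at 3 weeks and 0.291% at 1 week. Of 10 T cell genes on the array only Cd8a was tested, without a call at 3 weeks (0.49 ± 0.61, adjusted p = 0.857), and Cd3d, Cd3e, Cd3g and Cd4 stayed below the threshold on all 16 arrays. The summed T cell level was 441 to 499 in VP16-CREB pools of 3 weeks and 292 to 341 in littermates, and that of 7 B cell genes 874 to 958 and 414 to 575. No direction is drawn from the T cell sum, as all its genes but Cd8a stayed below the threshold on all 16 arrays. In the B cell sum Cd79a, Cd79b, Ms4a1, Blk and Pax5 stayed below it on all 16 arrays too. Only Cd22 and Ighm were tested there, so no direction is drawn from that sum either. Of the B cell list Cd22 rose (1.45 ± 0.23, adjusted p = 0.00185), a gene that microglia are also known to express, while Ighm did not pass (0.83 ± 0.25, adjusted p = 0.0991). Of 3 tested monocyte genes S100a4 rose (664 ± 188 in VP16-CREB and 84.9 ± 19.2 in littermates, SD, n = 3 each; 2.81 ± 0.31 log2), while Ccr2 and Chil3 stayed below the threshold. The summed level of the 7 monocyte genes on the array was 2012 to 2385 in VP16-CREB pools and 1191 to 1435 in littermates. Of the 7, only S100a4, Vcan and Fn1 were bright enough to test, so these 3 make up most of the sum. Vcan (means of 451 and 363) and Fn1 (893 and 710) were not called.

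Of 3 tested neutrophil genes 2 rose at 3 weeks, the granule enzyme Mpo (1.64 ± 0.19 log2) and the receptor Csf3r (1.67 ± 0.38), and S100a8 did not pass (0.36 ± 0.48, adjusted p = 0.876). The summed level of 9 neutrophil genes was 738 to 808 in VP16-CREB pools and 248 to 446 in littermates. Of the 9, S100a9, Ngp and Ltf passed the threshold on 1 array each, and Elane, Camp and Cxcr2 on 0. None of these was tested, and no direction is drawn from the sum. Mpo passed the filter on transgenic arrays alone (5 of 8), so that it had to differ to be tested. At 1 week S100a4 (2.24 ± 0.38, adjusted p = 0.0304) and Mpo (1.82 ± 0.23, adjusted p = 0.00504) were also higher. Of 6 tested genes of perivascular macrophages, 2 of NK cells, 3 of dendritic cells and 2 of red blood cells, 0 were called at 3 weeks. Their summed levels in VP16-CREB pools and littermates were 818 to 879 and 641 to 745, 308 to 400 and 259 to 309, 490 to 556 and 443 to 477, and 145 to 225 and 168 to 212. The part of these cells in the rise of the members was not tested.

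Hippocampal neuron markers were also measured on the same arrays. Of 14, 5 had fallen at 3 weeks, where 0.864% of all tested genes had, and 0 had risen. These were the granule cell genes Prox1 (-1.198 ± 0.15), Dsp (-1.77 ± 0.32), C1ql2 (-1.78 ± 0.31) and Calb1 (-0.88 ± 0.18), and Nptx1 (-0.75 ± 0.17). The summed level of all 14 was 33530 to 38840 in VP16-CREB pools and 47040 to 54010 in littermates. At 1 week it was 40640 to 41600 and 49140 to 52340, and with A-CREB 40020 to 46050 and 39430 to 53330, with 0 of 14 called in either, where 0.00785% of all tested genes had fallen at 1 week.

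Of 9 tested ligands of the leukocyte integrins, 3 rose and 1 fell at 3 weeks, and 5 did not pass. Over all tested genes, here and for the lists that follow, 4.59% rose and 0.864% fell. Those that rose were Icam1, the main ligand of LFA-1 and Mac-1, with 211 ± 29.4 in VP16-CREB pools and 49.2 ± 8.74 in littermates (SD, n = 3 each; 1.90 ± 0.25 log2, adjusted p = 0.00036), the junction protein F11r (1.33 ± 0.23, adjusted p = 0.00359) and Vcam1, which binds another leukocyte integrin (0.72 ± 0.18, adjusted p = 0.0397). Icam1 passed the filter on transgenic arrays alone (6 of 8), so that it had to differ to be tested. Icam5, the ICAM of forebrain neurons, fell, with 1909 ± 235 in VP16-CREB pools and 3428 ± 440 in littermates (-0.84 ± 0.21, adjusted p = 0.0345). The median of the 9 was 0.14, against 0 over all tested genes. Icam1 was also higher at 1 week, with 161 and 170 against 29.3 and 74.2 in littermates (1.61 ± 0.30, adjusted p = 0.0499), a value at the edge of the threshold.

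Integrin chains of other families were looked up too. Of 12 tested, 1 rose at 3 weeks (Itgb5, 1.22 ± 0.18, adjusted p = 0.00138) and 0 fell, with a median of 0.07. The difference was above 0 on 8 of the 12. Itga8 and Itga4 lay lower without a call. Their VP16-CREB pools had 269 to 327 and 237 to 414, against 568 to 728 and 461 to 651 in littermates. Of 19 tested genes that act inside the cell to switch integrins on, 5 rose and 0 fell, with a median of 0.24: the adaptor Fyb (1.96 ± 0.17), the actin bundler Lcp1 (1.69 ± 0.19), Fermt3, the kindlin of blood cells (1.69 ± 0.24), and Cyth4 (1.42 ± 0.24) were the 4 largest. The other 14 did not pass, from Cyth1 (-0.49 ± 0.15, adjusted p = 0.121) to Apbb1ip (0.62 ± 0.27, adjusted p = 0.306), among them Coro1a, a coronin of blood cells (0.17 ± 0.16, adjusted p = 0.783), and Tln1, the talin of most tissues (-0.04 ± 0.26, adjusted p = 0.981). At 1 week 0 genes of either list were called, where 0.291% of all tested genes rose and 0.00785% fell. With A-CREB 0 were called as well, as were 0% of all tested genes.

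Around Ptprc, 3 of 11 tested genes of Src-family signalling rose at 3 weeks and 0 fell (median 0.48). They were Ptpn6 (SHP-1), the phosphatase of blood cells that damps receptor signals (708 ± 158 in VP16-CREB pools and 144 ± 40.5 in littermates, SD, n = 3 each; 2.23 ± 0.20 log2, adjusted p = 1.54e-05), the lipid phosphatase Inpp5d (1.31 ± 0.24) and the kinase Syk (0.86 ± 0.19). The other 8 did not pass, from Src (-0.27 ± 0.18) to Btk (1.31 ± 0.54, adjusted p = 0.278). Of 5 tested binding partners of the surface genes, Cd22 and Lgals1 (1.32 ± 0.20, adjusted p = 0.00155) rose.

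Cd180, the receptor that Ly86 escorts, had 151 ± 32.7 in VP16-CREB pools of 3 weeks and 61.6 ± 18.7 in littermates (SD, n = 3 each). The difference of 1.18 ± 0.31 just failed (adjusted p = 0.0518). At 1 week its pools had 104 and 110, against 6.73 and 36.8 in littermates, a rise of 2.07 ± 0.38 (adjusted p = 0.0479), with both littermate pools well below the threshold of 99.1. Cd180, Tlr4 and Ly96 passed the filter on transgenic arrays alone, as did 11 of the 126 list genes tested, of which 4 had risen at 3 weeks (Icam1, Mpo, Was and Csf2rb) and 3 at 1 week (Icam1, Mpo and Cd180). Tlr4 (1.18 ± 0.53, adjusted p = 0.351) and its own partner Ly96 (0.58 ± 0.44, adjusted p = 0.692), the relatives of CD180 and Ly86, did not pass at 3 weeks.

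Families of Cd53 and Laptm5 were checked as well. Of 9 other tetraspanins 3 rose at 3 weeks, Cd9 (1.83 ± 0.20), Tspan4 (1.04 ± 0.23) and Cd151 (0.86 ± 0.18), and 0 fell, with a median of 0.53. Cd37, another tetraspanin of blood cells, had 127 ± 38.5 in VP16-CREB pools and 78.8 ± 8.72 in littermates (adjusted p = 0.589). Laptm4a (0.26 ± 0.35) and Laptm4b (0.14 ± 0.17), found in most tissues, did not pass.

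Of 13 further surface genes of blood cells tested, 12 rose at 3 weeks, with a median of 2.07. The 4 largest were Cd68 (2.73 ± 0.23), Cd84 (2.68 ± 0.29), which like Cd48 is of the SLAM family, Cd44 (2.67 ± 0.33) and Cd33 (2.62 ± 0.48). Cd300a (1.19 ± 0.47, adjusted p = 0.259) was the one that did not pass. At 1 week Cd68 alone rose (1.84 ± 0.29, adjusted p = 0.0164), where 0.291% of all tested genes rose. With A-CREB 0 of 13 rose, as did 0% of all tested genes.

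**Figure D5:**
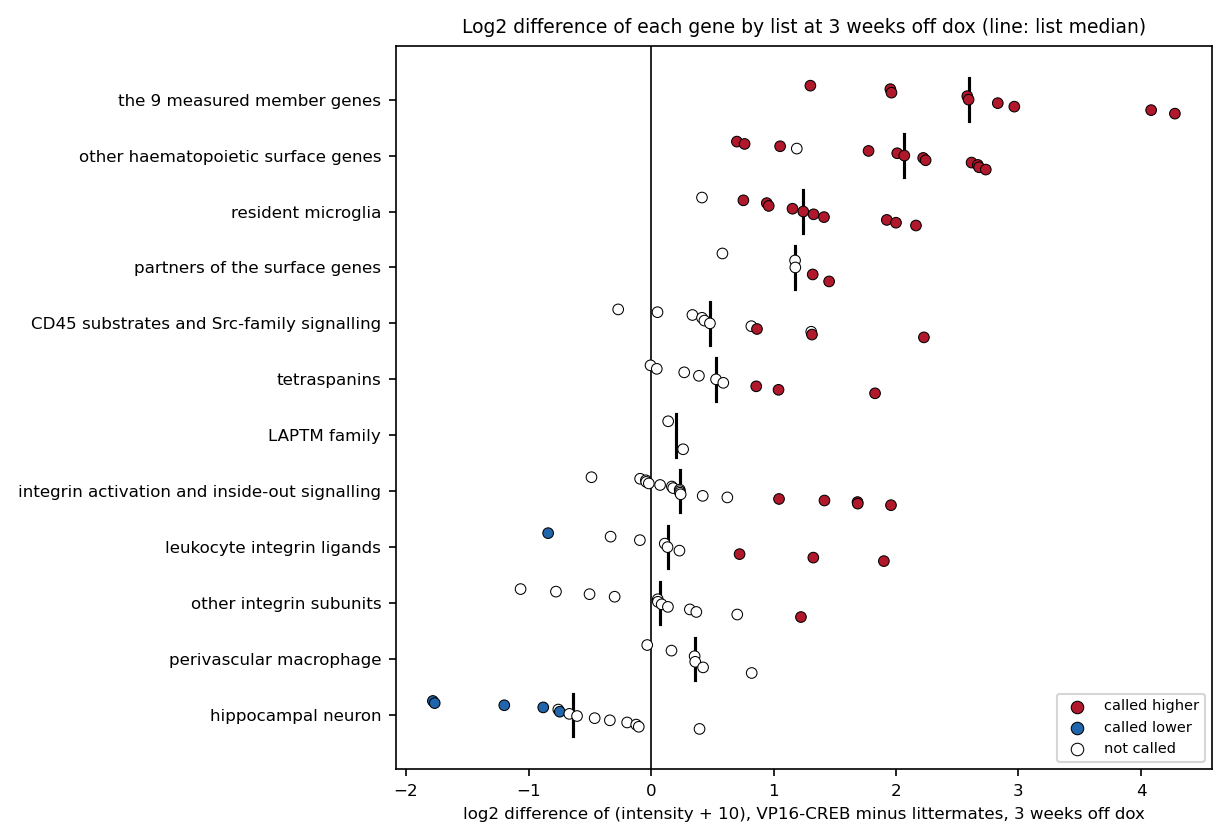
Log2 difference of each tested gene in VP16-CREB mice of 3 weeks minus littermates, at its probe set of highest mean, by list, with the list median (black line); red points rose, blue points fell and white points did not pass. The 9 genes described here and 13 other surface genes of blood cells lie to the right (medians 2.59 and 2.07). The other integrin subunits have a median of 0.07 but spread to both sides, and the LAPTM genes lie near 0. Most neuron markers lie to the left.

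The genes whose pattern lay nearest to a member were found by the mean absolute difference over the 16 arrays, after each value was set against the mean of its own littermates. For Itgax they were Dock2, a Rac activator of blood cells (0.48), Lgals3bp (0.52) and the protease inhibitor A2m (0.52). For Itgb2 they were the cytokine receptor Osmr (0.21), the lipid receptor S1pr3 (0.22) and Vim, the filament protein vimentin (0.23). For Cd52 they were the chemokine Ccl6 (0.38), the MHC class I gene H2-Q5 (0.41) and Mpeg1, a pore-forming protein of macrophages (0.41). Their differences, which this choice fixes in large part and which are given as a description, were 2.37 to 3.72 log2 at 3 weeks. At 1 week they were 1.47 to 3.27 for those near Itgb2 and Cd52 and 0.30 to 0.86 for those near Itgax.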

How the data were processed

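Hippocampal RNA pools were measured on 16 arrays in 6 groups. The deposited value of each probe set is a linear intensity that the authors computed with MAS5, per the submitters' processing notes, whose version is not given in the sources used here. Leaving out 2% of values at each end, the mean was 500 on every array, so no further scaling was applied. MAS5 subtracts a mismatch signal, which makes low intensities noisy, and no detection calls were used.

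Here 64 control probe sets were left out, 10 was added before log2, and 27044 probe sets above 99.1 on at least 2 arrays were fitted with limma 3.58.1 in R 4.3.3 (data.table, version 1.17.8): lmFit with a coefficient per group over all 16 arrays, eBayes, two-sided, 10 residual degrees of freedom plus 3.44 from the prior, with p-values adjusted per comparison by Benjamini-Hochberg. The 5 comparisons were 3 of transgenic pools with littermates and 2 of their effects. The fit was tested on simulated data. Figures were drawn with Python 3.11.15 and matplotlib 3.10.9.

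All probe sets of the 10 genes are described. List counts use, for each gene, its probe set with the highest mean, and up to 4 called genes of largest change are named per list, or the 2 of highest mean where none was called. Beyond that rule, genes that show a contrast were named after their values were seen: P2ry12, Cd180, Tlr4, Ly96, Cd37, Itga4, Itga8, Cyth1, Apbb1ip, Coro1a, Tln1, Src, Btk, Was, Csf2rb, Cd300a, Cd8a, Ighm, S100a8 and the dim lymphocyte, monocyte and neutrophil markers. The 10 genes, the lists and the tests were chosen with earlier results of these data known. Correlations of same-numbered deviations from the group means ran from -0.228 to 0.407. For A-CREB pool 2 the value was 0.407, against -0.011 at most for another number. For VP16-CREB pool 1 of 3 weeks it was -0.164, against 0.338. With 2 or 3 pools a group this cannot decide whether the replicate numbers pair the pools, and the main fit did not pair them.

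Alternatives were no pseudocount (values floored at 1) or 25, no filter or a filter on the mean, quantile normalization, median centring, a fit of only the arrays compared, array weights, robust variances with a trend, 1 probe set for each gene, the replicate number as a block, and the omission of each array. Gene positions are RefSeq's on GRCm38.p6, and the promoter windows are on the same build.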

Additional observations from a re-analysis of the deposited data

Results flagged for a closer look

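The effect of VP16-CREB at 3 weeks differed from that of A-CREB by the test of the difference itself (limma contrast of the 2 effects, Benjamini-Hochberg over 27044 probe sets) on 5 probe sets. Cd52 differed by 3.20 log2: it was 4.28 higher in VP16-CREB mice than in their littermates, against 1.08 in A-CREB mice. Cd48 differed by 2.36, with effects of 2.97 and 0.61, but it passed the filter on transgenic arrays alone, and its call was lost under 12 of 23 alternatives, such as no filter (adjusted p = 0.0865). Laptm5 at 1426025_s_at differed by 2.17, with effects of 1.94 and -0.23. The other tested probe sets of Laptm5 were not called. They differed by 1.46 at 1436905_x_at (adjusted p = 0.213), 1.72 at 1417721_s_at (0.235) and -0.07 at 1459841_x_at (0.993). Their A-CREB effects were 0.50, 0.45 and -0.43. Ly86 differed by 2.09, with effects of 2.83 and 0.74. Ptprc differed by 2.01, with effects of 2.59 and 0.59. In every pair the first value is that of VP16-CREB. The VP16-CREB set had median array intensities of 118.9 to 129.3 and the A-CREB set of 74.99 to 89.74, and the part of this gap in the result was not tested. After quantile normalization, which gives all arrays the same distribution, 8 of the 12 tested probe sets were called.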

How the results depend on the processing

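At 3 weeks of VP16-CREB, 9 to 11 of the tested probe sets were called under the 17 alternatives, the 9 coming from the setting with 1 probe set per gene. Over all probe sets, 1062 were called, 4137 with array weights and 584 to 854 with an array left out. At 1 week 3 were called, 1 without a filter, 0 with only the arrays compared and 0 to 2 with an array left out. Over all probe sets 64 were called there, 32 without a filter, 0 with only the arrays compared, 31 with array weights, 23 with a replicate block and 16 to 45 with an array left out. Of those 64, 59 were higher, and after centring on the median 80.6% of the calls were. With A-CREB 0 of the 12 were called under any of the 17, and over all probe sets 3 without a pseudocount, 2 with a pseudocount of 25, 2 with 1 probe set per gene and 0 to 4 with an array left out. For the 3-week effect minus the 1-week effect, quantile normalization called 2 of the 12. Over all probe sets 1 was called, 2 without a pseudocount, 21 after quantile normalization, 9 with only the arrays compared, 3 with array weights, 0 with a pseudocount of 25, no filter, a filter on the mean, centring, 1 probe set per gene or a replicate block, and 0 to 5 with an array left out. For the effect of VP16-CREB minus that of A-CREB, 5 of the 12 were called, 8 after quantile normalization and 4 to 6 with an array left out. Over all probe sets 240 were called, 138 without a filter, 404 with array weights, 144 with a replicate block and 114 to 218 with an array left out.

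Directions turned for Itgam with A-CREB (0.15 with array weights, 0.12 without littermate pool 2, 0.31 without A-CREB pool 3, range with an array left out -0.26 to 0.31) and Laptm5 at 1459841_x_at with A-CREB (0.17 with array weights, 0.34 without A-CREB pool 3, range -0.96 to 0.34). They also turned for the 3-week minus 1-week effect of Itgam (-0.03 without littermate pool 1 of 1 week, range -0.03 to 0.33) and for the VP16-CREB minus A-CREB effect of Laptm5 at 1459841_x_at (0.16 without a pseudocount, 0.10 without VP16-CREB pool 3, 0.21 without littermate pool 1, 0.45 without A-CREB pool 1 and 0.17 without A-CREB pool 2, range -0.84 to 0.45). None of these was called, and the cause was not tested. The replicate block ended the calls of Ptprc at 1 week (adjusted p = 0.143) and of Cd48 against A-CREB (0.0717) and no other call on the 12.

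Limits: groups of 3 or 2 pools give little power at 1 week, where the omission of a pool leaves 1, whose spread was taken from the other groups. Intensities below 99.1, as for Itgal throughout and Itgax in littermates, are noisy in MAS5 and give no precise fold.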
